A study of Mus musculus with 12 samples.

Results

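Hearts taken 7 days after acute myocardial infarction (AMI) were compared with hearts after sham surgery, across the 15306 genes that passed a filter on low counts out of 53801 in the count table. The comparison covers 8 of the 12 hearts sequenced, 4 day 7 AMI hearts and 4 sham hearts, and each heart gave 1 library. The 4 day 1 AMI hearts are given beside them only to show where a change already stood earlier. All hearts came from C57BL/6N mice, for which no engineered allele is named, and the study's methods describe its surgical animals as adult males. In the AMI groups the left anterior descending coronary artery (LAD) was tied off permanently through a left thoracotomy, so no reperfusion followed. The labels give no day for the single sham hearts. The labels give the tissue as heart, and the study's methods say that RNA came from whole hearts. The values are therefore not split into infarct, border zone and remote muscle, and fewer cells of a type and less RNA per cell cannot be told apart. The study examined these hearts for genes of the inflammatory response to AMI.

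A week after a permanent infarct, the mouse heart is in the repair phase. Dead muscle has been cleared by phagocytes, fibroblasts that have become myofibroblasts fill the defect with collagen, and several kinds of cell in and around the infarct divide. The surviving muscle works under a higher load and relies on fatty acids, which its many mitochondria burn. The genes of these events were read as 5 programmes: scar, proliferation, immune cells, metabolism and muscle.

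Depth was even across the groups, at 23253576 to 26573727 counts in the sham hearts and 23204551 to 28738082 in the day 7 AMI hearts. Genes of the mitochondrial genome took 17.9% to 27.4% of the counts in sham hearts, most in sham heart 1, and 13.2% to 19.2% in day 7 AMI hearts. TMM factors, which keep a few very abundant transcripts from setting the scale of a library, were applied, and counts are given below as CPM, scaled to a library of fixed size. The factors ran from 0.781 to 0.917 in sham and from 1.10 to 1.17 in day 7 AMI hearts. Differentially expressed genes (DEGs) were those with a false discovery rate (FDR) below 0.05 in edgeR's quasi-likelihood test whose mean level also differed at least 2 times (fold change, FC), and "rose" and "fell" are used only for them. Levels that are compared between genes are in TPM, the deposited transcript share of a library, which allows for transcript length. The mouse is the replicate (n = 4 in each group), and counting error is small beside the spread between hearts except for genes of a few counts. Sham hearts were not all alike. Erythroid transcripts were highest in sham heart 2, and the neutrophil list summed to 108, 241, 9.50 and 4.27 TPM in the 4 sham hearts. In several genes, though not in all, sham hearts 1 and 2 lay apart from 3 and 4. Examples are *C3*, at 488, 444, 116 and 112 CPM, and *Ucp3*, at 81.3, 64.5, 192 and 169 CPM.

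In day 7 AMI, 2346 genes (15.3% of those tested) were higher than in sham and 900 (5.88%) were lower. The rises were larger than the falls. Among the higher genes the FC was at least 4 in 862 and at least 16 in 151, against 73 and 3 of the lower genes. The falls, in turn, sat in more abundant transcripts. Together the lower genes dropped from 272860 to 167570 TPM, while the higher genes went from 15089 to 76872 TPM. The balance between them depended on the scaling. With TMM the median log2 FC over all genes was 0.03, with library sizes alone it was 0.43, and on the log2(TPM + 1) scale it was 0.48. On library sizes alone 3633 genes were higher and 318 lower, and on the log2(TPM + 1) scale, with limma and its own filter on TPM, 2666 were higher and 113 lower. The log2 FCs below are from TMM and so are relative to the median gene, while changes in TPM are not, since the median gene was higher in day 7 AMI on that scale.

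**Figure D1:**
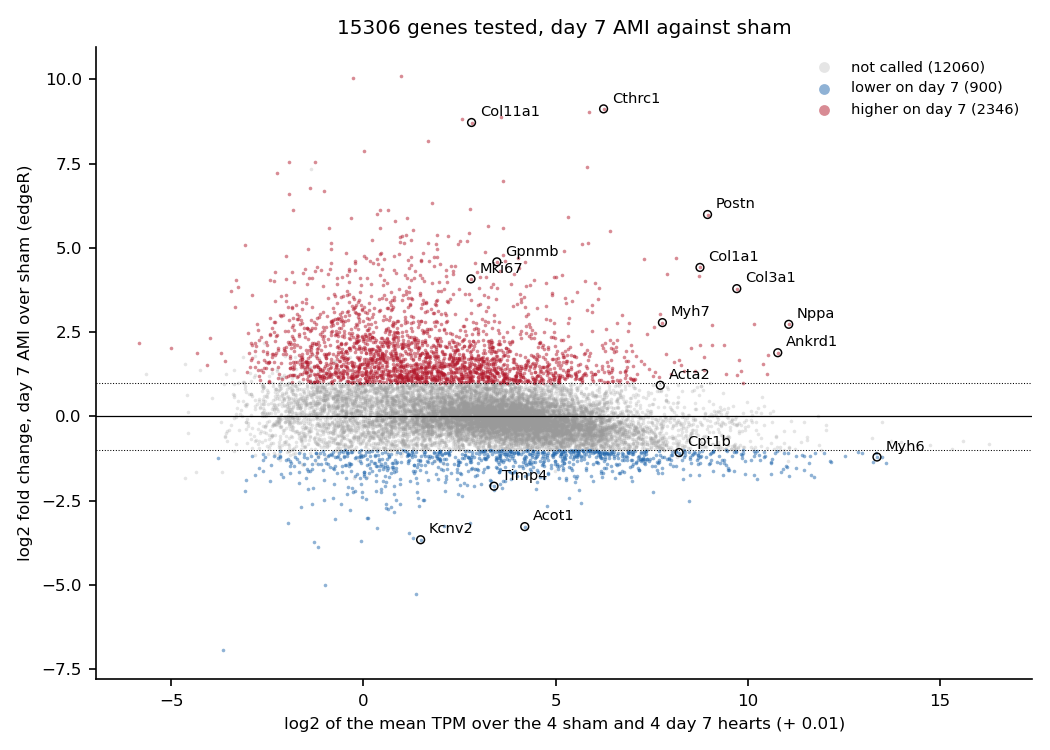
Each point is 1 of 15306 genes, with its mean TPM over the 8 hearts on the x axis (log2, with 0.01 added) and its edgeR log2 FC in day 7 AMI over sham on the y axis. Red points are the 2346 DEGs that were higher, blue points the 900 that were lower, grey points the rest, and dotted lines mark a FC of 2. Cthrc1 (9.13) and Col11a1 (8.72) lie near the top, and the lower gene Myh6 (−1.20) is the labelled gene farthest to the right.

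The 5 programmes moved in different directions. Summed over its genes, those under the filter included, the scar programme held 2596, 3129, 3065 and 2674 TPM in the 4 sham hearts and 24492, 17451, 14168 and 17951 TPM in the 4 day 7 AMI hearts. The proliferation programme went from 307, 381, 335 and 296 to 1220.4, 1020.5, 880.2 and 1153 TPM. For the immune programme the sums were 5855, 6670.4, 5321 and 5009.7 in sham and 11333, 8752, 8776 and 11690.0 in day 7 AMI. These groups did not overlap in any of the 3 programmes, and day 7 AMI heart 1 was the highest for scar and proliferation. Genes of dead cell uptake and lipid handling held most of the immune sum, with means of 4372 TPM in sham and 5777 in day 7 AMI. Among them *Lpl*, which heart muscle makes in large amounts as well, held 1905 TPM in sham and 1257 in day 7 AMI. Metabolic genes summed to 132960.0, 164530.0, 167290.0 and 157860.0 TPM in sham and 108380.0, 97351, 110940.0 and 105430.0 in day 7 AMI, again with no overlap. Muscle genes summed to 106780.0, 106110.0, 124460.0 and 123680.0 TPM in sham and 101130.0, 97875, 110340.0 and 100980.0 in day 7 AMI, and here the groups overlapped.

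**Figure D2:**
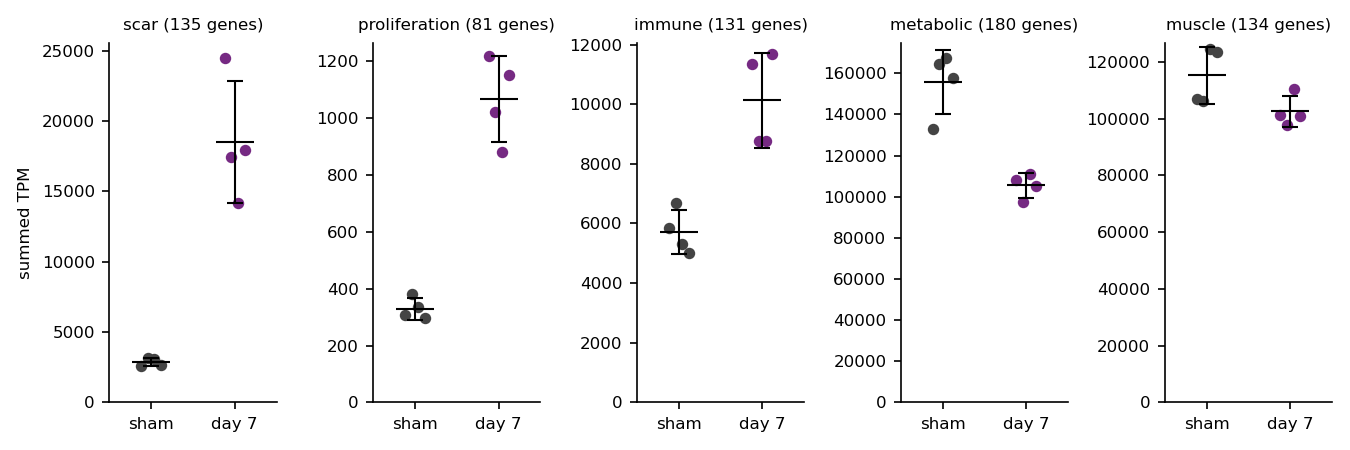
Summed TPM of the 5 programmes, each on its own axis from 0, with 1 point for each heart (grey, sham; purple, day 7 AMI) and the mean and SD (n = 4) in black. The scar sum was 2866 TPM on average in sham and 18516 in day 7 AMI, the metabolic sum 155660 and 105530, and the muscle groups overlap.

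Of the 133 scar genes tested, 96 rose, 2 fell and 35 were not called, with a median log2 FC of 2.09, where 15.3% of all genes rose. Among its lists only the collagens rose in every member. All 19 tested chains on the list of fibrillar and associated collagens rose, with a median log2 FC of 3.22. The list does not hold every collagen gene. In all 19 chains each day 7 AMI heart was above each sham heart, which was so for 28.3% of all genes. *Col1a1* (chromosome 11, 94936224 to 94953042, plus strand, in GRCm38) encodes the main chain of type I collagen, the bulk protein of a scar. It measured 133, 152, 145 and 110.0 CPM in the 4 sham hearts and 5188, 2464, 1482 and 2434 in the 4 day 7 AMI hearts, with a log2 FC of 4.42 (SE 0.32, adjusted p = 1.11e-07). The lowest day 7 AMI heart was thus far above the highest sham heart, although the day 7 AMI hearts spread widely, with heart 1 highest and heart 3 lowest. *Col3a1*, the type III chain laid down early in repair, went from 327, 244, 294 and 195 to 4284, 3537, 2862 and 4002 CPM, a log2 FC of 3.79. The steepest rise of a collagen was that of *Col11a1*, a chain of fibrillar type XI collagen. Sham hearts held 0.156, 0, 0.291 and 0 CPM of it and day 7 AMI hearts 113, 35.6, 17.2 and 20.8, a log2 FC of 8.72 (SE 0.85, adjusted p = 1.30e-06). *Col8a2*, a short-chain collagen, stood at 39.5, 31.3, 32.1 and 36.5 CPM in the day 7 AMI hearts against 0.365, 0.575, 0.388 and 0.574 in sham (log2 FC 6.17). *Col12a1*, which coats collagen fibrils, had a log2 FC of 5.60. The value of *Col11a1* was 9.83 without sham heart 3 and 7.79 without day 7 AMI heart 1. *Col4a2*, a chain of basement membranes, had the lowest log2 FC of the list, 1.32, and was named after its value was seen. In day 1 AMI 9 of the 19 collagens were DEGs above sham (7.79% of all genes were), with a list median of 1.08, and between day 1 and day 7 AMI 15 of them rose (8.55% of all genes did).

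Of the 23 genes tested whose products fold and cross-link collagen, 16 rose and 7 were not called, with a median of 1.34. *Lox*, the lysyl oxidase that cross-links collagen and elastin, measured 8.82, 9.04, 4.95 and 6.41 CPM in sham and 357, 269, 166 and 223 CPM in day 7 AMI, a log2 FC of 5.12 (SE 0.35, adjusted p = 7.03e-08). Its hearts kept the order seen for *Col1a1*, with heart 1 highest and heart 3 lowest. *P4ha3*, a prolyl hydroxylase subunit, was nearly undetected in sham, at 1, 2, 2 and 3 counts, and reached 404, 181, 141 and 217 counts in day 7 AMI. *Loxl3*, another lysyl oxidase, had a log2 FC of 3.64. An antisense gene covers 11.6% of its exon bases, and the strand that was counted is not given in the sources used here.

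Matricellular proteins sit in the matrix and signal to cells. Of the 25 matricellular and other non-collagen matrix genes tested, 22 rose, with a median of 2.78. *Postn* (chromosome 3, 54361109 to 54391037, plus strand) encodes periostin, which activated fibroblasts secrete. The 4 sham hearts had 24.0, 23.7, 28.5 and 26.8 CPM and the 4 day 7 AMI hearts 2092, 1638, 1311 and 1516, a log2 FC of 5.99 (SE 0.20, adjusted p = 1.18e-10), or 63.6-fold. Its groups were far apart and its day 7 AMI hearts close together. *Cthrc1*, a secreted protein of injury-activated fibroblasts, measured 0.0522, 0.246, 0.194 and 0.0478 CPM in sham and 128, 78.7, 53.4 and 64.9 in day 7 AMI, and its log2 FC of 9.13 rested on sham counts of 1, 6, 4 and 1. *Tnc*, tenascin C, and *Spp1*, osteopontin, had log2 FCs of 6.99 and 7.41, and their values in day 1 AMI against the same sham hearts were already 6.77 and 7.94. *Postn* and *Cthrc1* stood at 1.76 and 4.18 on day 1. Without day 7 AMI heart 1 the value of *Tnc* was 6.17. The 4 day 7 AMI hearts differed for *Spp1*, at 159, 92.5, 40.1 and 29.9 CPM, and a same-strand gene covers 18.8% of its exon bases. *Dcn*, *Fbln1* and *Cyr61*, the 3 members that were not called, had log2 FCs of 0.36, 0.13 and 0.83. They are named because they were the exceptions.

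*Sparc* and *Col3a1* were also among the 8 genes that gained most in TPM. The *Sparc* protein, also called osteonectin, binds collagen, and its level went from 211 ± 41.5 to 2076 ± 486 TPM (SD, n = 4). Among the 8 largest rises by FC were 3 more genes of the extracellular space. *C1qtnf3*, an adipokine-like secreted protein, went from 1, 2, 0 and 2 counts in sham to 1209, 717, 580 and 977 in day 7 AMI. *Cemip*, which breaks down hyaluronan, had 135, 23.5, 9.63 and 11.2 CPM in day 7 AMI against 0.104, 0.205, 0.0485 and 0 in sham, and heart 1 held most of it. Its log2 FC of 8.84 was 7.23 without that heart. *Adamts16*, a metalloprotease, had no count in any sham heart and 354, 118, 47 and 66 counts in day 7 AMI, which made it at least 31.1-fold higher against a floor of 3 counts per sham library. Day 7 AMI heart 1 was the highest, and without it the bound was 18.2-fold.

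Of 15 genes tested of the contractile myofibroblast, 8 rose, none fell and 7 were not called, with a median of 1.07. *Acta2*, the smooth muscle actin that defines the myofibroblast, was among those not called. It measured 195, 166, 190.4 and 70.1 CPM in sham and 538, 251, 187 and 203 in day 7 AMI, so that the groups overlapped, with a log2 FC of 0.92 (SE 0.36, adjusted p = 0.0394). Its FC reached 2 when sham heart 1 or 3 or day 7 AMI heart 3 or 4 was left out (1.03 to 1.09), on library sizes alone and on the log2 TPM scales. *Itga11*, a collagen-binding integrin, rose from 3.91, 2.75, 3.06 and 2.34 to 35.3, 19.9, 18.4 and 22.7 CPM (3.00 on the log2 scale). *Meox1*, a transcription factor of activated fibroblasts, went from 8.03, 10.9, 9.46 and 7.27 to 72.8, 61.6, 62.9 and 62.8 CPM, a log2 FC of 2.86, with little spread in day 7 AMI. *Cnn1*, calponin, had a log2 FC of 2.57 and was highest in day 7 AMI heart 1, at 33.1, 10.9, 6.53 and 7.55 CPM, and without that heart the log2 FC was 1.76. Counts of this list moved with the scaling, to 14 on library sizes alone and 13 on the log2(TPM + 1) scale.

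Of 11 genes tested that are best known from cartilage, 7 rose and 4 were not called, with a median of 2.50. *Comp*, cartilage oligomeric matrix protein, measured 1.67, 6.32, 3.78 and 5.64 CPM in sham and 98.1, 60.9, 75.2 and 76.6 in day 7 AMI, a log2 FC of 4.14 (SE 0.33, adjusted p = 2.60e-07). Its day 1 AMI value was 0.12. *Acan*, aggrecan, the large proteoglycan of cartilage, rose from 0.0522, 0.452, 0.0970 and 0 to 19.4, 7.42, 4.17 and 6.39 CPM, a log2 FC of 5.81, which was 7.44 without sham heart 2 and 5.17 without day 7 AMI heart 1. *Col2a1*, the cartilage collagen, went from 1, 3, 2 and 1 counts in the sham hearts to 117, 60, 46 and 91. *Matn3*, matrilin 3, had no count in sham and 26, 25, 13 and 15 counts in day 7 AMI, at least 4.41-fold higher against the floor of 3 counts per library. In these 4 genes the groups did not overlap, and 2 of the 11 members were DEGs above sham in day 1 AMI.

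Matrix proteases and their inhibitors moved both ways. Of 21 tested, 12 rose, 2 fell and 7 were not called, with a median of 1.17. *Adam12* and *Mmp12*, the macrophage elastase, had log2 FCs of 5.15 and 4.30, and *Timp1*, an inhibitor of these enzymes, one of 3.95. The 4 sham hearts had 2.66, 5.42, 1.94 and 1.53 CPM of *Timp1* and the 4 day 7 AMI hearts 80.1, 37.7, 23.7 and 40.1. *Timp4*, the inhibitor that is rich in normal heart, fell. It measured 36.3, 39.1, 34.3 and 40.7 CPM in sham and 9.0, 9.27, 11.3 and 6.22 in day 7 AMI, a log2 FC of −2.07 (SE 0.33, adjusted p = 8.89e-05). *Mmp3*, stromelysin, was the other fall, with a log2 FC of −1.10 (SE 0.42, adjusted p = 0.0362), but its groups overlapped. It measured 12.1, 11.3, 3.06 and 2.82 CPM in sham, high in hearts 1 and 2, and 2.71, 2.86, 3.87 and 4.25 in day 7 AMI. The call was lost without sham heart 1 (−0.76) or 2 (−0.80) and without day 7 AMI heart 1, 2 or 3 (from −1.16 to −1.0).

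Among genes of TGF-beta and activin signalling, which drives fibroblast activation, 12 of 19 rose and none fell, with a median of 1.21. *Ltbp2*, of the family of latent TGF-beta binding proteins, measured 2.87, 4.60, 4.85 and 3.87 CPM in sham and 386, 208, 164 and 217 in day 7 AMI, a log2 FC of 5.90 (SE 0.28, adjusted p = 3.92e-09). *Fstl1*, a secreted follistatin-like protein, rose from 117, 111, 99.6 and 79.6 to 1064, 856, 675 and 777 CPM, a log2 FC of 3.05. *Gdf15*, a stress cytokine of this family, had a log2 FC of 4.15 and *Tgfb1*, the ligand itself, one of 1.00. The call of *Tgfb1* sat at the FC limit and was lost without sham heart 1 or 4 or day 7 AMI heart 1 or 4, at values from 0.89 to 0.99.

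**Figure D3:**
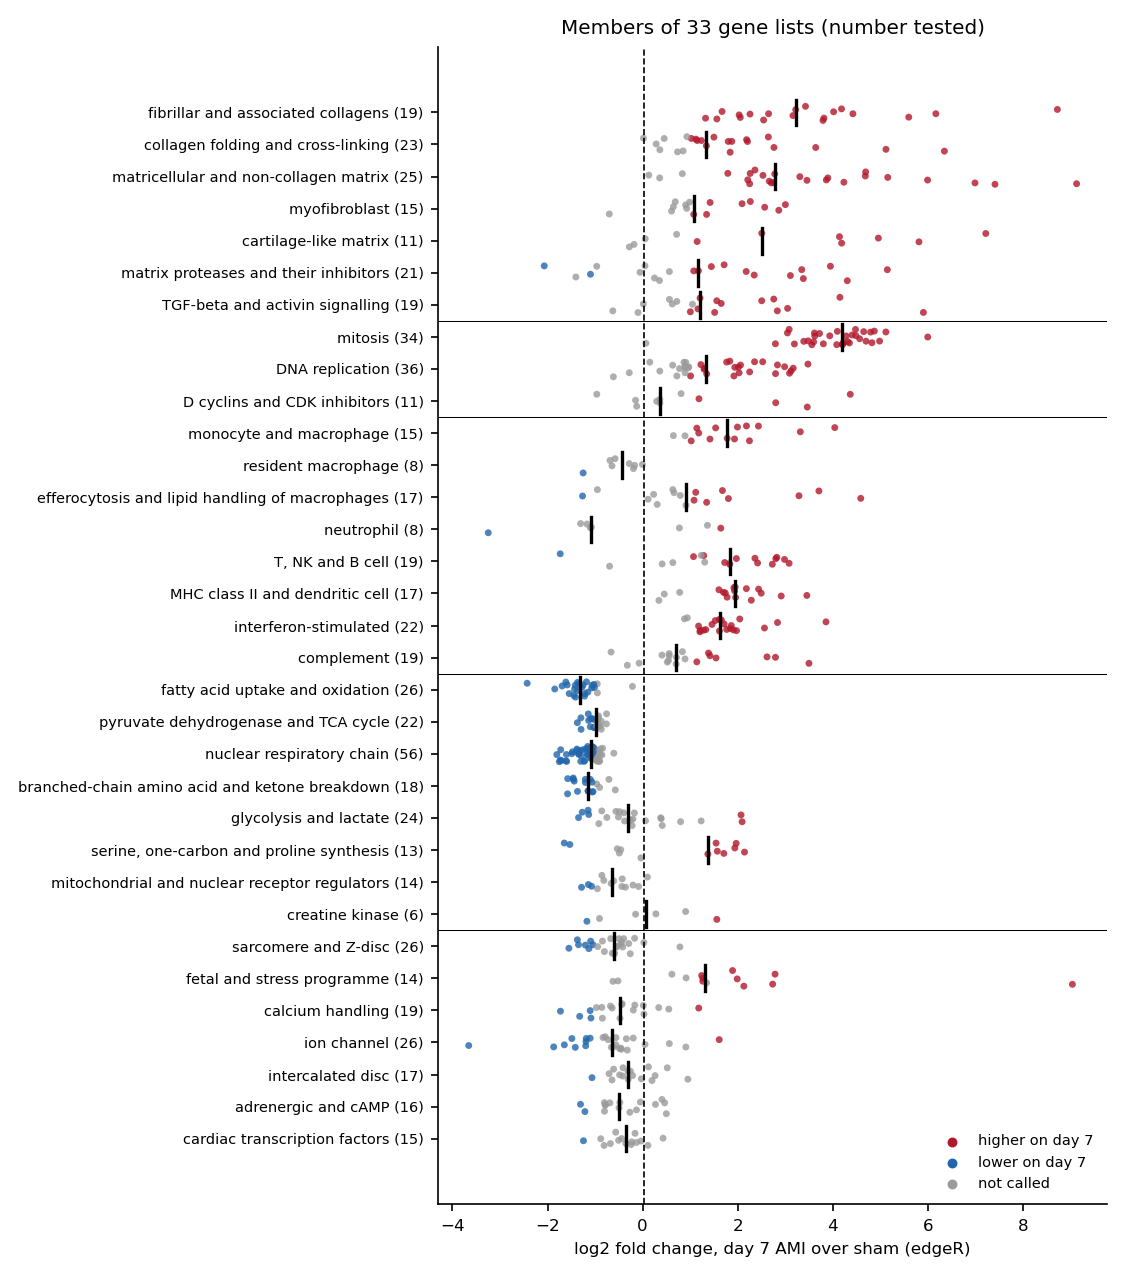
Each point is a gene of 1 of 33 lists, placed by its edgeR log2 FC in day 7 AMI over sham (red, higher; blue, lower; grey, not called). Black ticks are list medians, the dashed line is the median of all genes (0.03), and horizontal lines part the 5 programmes. Collagens (median 3.22) and mitosis genes (4.20) lie to the right and genes of fatty acid oxidation (−1.31) to the left.

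Genes of dividing cells were low in sham hearts and high in day 7 AMI. Of 81 proliferation genes tested, 59 rose, none fell and 22 were not called, with a median log2 FC of 2.80, where 15.3% of all genes rose. In the mitosis list 33 of 34 rose, with a median of 4.20, and in each of the 33 the day 7 AMI hearts were all above the sham hearts. Their summed level went from 28.0, 22.1, 13.5 and 12.1 TPM in the 4 sham hearts to 446, 341, 262 and 393 TPM in the 4 day 7 AMI hearts, so that sham heart 1 was the highest of its group. *Mki67* (chromosome 7, 135689784 to 135716361, minus strand), the gene of the Ki-67 antigen of cycling cells, measured 9.55, 4.03, 2.96 and 3.06 CPM in sham and 92.9, 79.0, 68.0 and 88.8 in day 7 AMI, a log2 FC of 4.08 (SE 0.29, adjusted p = 9.31e-08). *Ccnb1*, cyclin B1, which brings cells into mitosis, went from 0.678, 0.534, 0.0970 and 0 to 16.8, 11.3, 7.75 and 10.3 CPM, a log2 FC of 5.11. *Ttk*, a kinase of the spindle checkpoint, had 1, 3, 1 and 0 counts in the sham hearts and 140, 104, 88 and 133 in the day 7 AMI hearts, a log2 FC of 6.00 that was 6.74 without sham heart 2. *Nuf2*, a kinetochore subunit, rose by 4.98 on the log2 scale and by 6.25 without sham heart 1. *Cenpf* was the exception, with a log2 FC of 0.07, and was named for that. In day 1 AMI 17 of the 34 were above sham, with a median of 1.03, and between day 1 and day 7 AMI 33 rose.

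The promoters of these genes share letters that can be shown. Windows of 250 bases before and 50 after the transcription start (RefSeq, GRCm38.p6) were found for 29 of the 34 mitosis genes. The cell cycle homology region (CHR), TTTGAA on either strand, is the element through which the DREAM complex holds mitotic genes silent in resting cells. It was present in 22 of the 29 windows (75.9%), against 18.5% of 17492 protein-coding genes with a window. A gene was counted once if any window of it held the motif. Over the windows of all those protein-coding genes, the element overlapped another of the 7 motifs searched in 42 cases, counted motif by motif. The 4 mitosis genes with the highest day 7 AMI level in TPM that had the element before the start are shown, with the element in capitals and up to 20 flanking bases on each side, on the strand of the gene.
Ube2c, chr2:164769880-164769925, plus strand: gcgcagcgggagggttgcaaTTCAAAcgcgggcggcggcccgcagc
Cdk1, chr10:69352913-69352947, minus strand: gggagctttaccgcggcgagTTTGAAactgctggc
Top2a, chr11:99024190-99024232, minus strand: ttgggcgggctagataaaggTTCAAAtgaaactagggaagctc
Prc1, chr7:80294426-80294471, plus strand: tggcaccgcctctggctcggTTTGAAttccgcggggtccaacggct
These genes encode a ubiquitin carrier of the anaphase-promoting complex, the kinase of mitotic entry, a topoisomerase that untangles chromosomes, and a bundler of spindle microtubules. Their log2 FCs were 3.48, 4.70, 4.79 and 4.31. The CCAAT box, CCAAT on either strand, was in 23 of the 29 windows (79.3%) and in 42.3% of all. All 7 motifs were chosen after the data were seen. A match in a window is a description of the letters, and binding was not measured.

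Of 36 DNA replication genes tested, 22 rose, none fell and 14 were not called, with a median of 1.32. *Mcm2*, a subunit of the replicative helicase, measured 8.45, 11.1, 8.29 and 8.99 CPM in sham and 23.8, 21.8, 21.1 and 23.7 in day 7 AMI, a log2 FC of 1.29 (SE 0.11, adjusted p = 3.32e-07). *Cdc6* and *Mcm10*, which load and start that helicase, had log2 FCs of 3.17 and 3.12, and *Uhrf1*, which keeps DNA methylation through replication, one of 3.48. The values of these last 3 genes on day 1 were 2.47, 2.34 and 2.83. Between day 1 and day 7 AMI 9 of the 36 rose. The E2F site TTTCGCGC was in 6 of 30 windows of this list (20%), in 1 of 29 windows of mitosis genes (3.45%), and in 0.526% of all windows.

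Among 11 D cyclins and inhibitors of cyclin-dependent kinases (CDKs), 4 rose and 7 were not called, with a median of 0.36. *Cdkn2b*, the p15 inhibitor that TGF-beta induces, rose from 0.261, 0.821, 0.291 and 0.191 to 4.90, 3.01, 1.44 and 1.94 CPM, a log2 FC of 2.80 (SE 0.45, adjusted p = 0.000103). *Cdkn2a*, which encodes p16 and ARF, had 0, 0, 2 and 0 counts in the 4 sham hearts and 27, 15, 12 and 13 in day 7 AMI. *Cdkn3*, a phosphatase of CDKs, had a log2 FC of 3.46. Without single sham hearts these values were higher, at 3.49 for *Cdkn2b* without heart 2 and 4.08 for *Cdkn3* without heart 1. *Cdkn1a*, the p21 inhibitor, was not called, with a log2 FC of 0.36 (SE 0.47, adjusted p = 0.526), and of the alternatives tried it passed on the log2 TPM scales.

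Of 122 immune genes tested, 73 rose, 4 fell and 45 were not called, with a median of 1.37. Over all genes 15.3% rose and 5.88% fell. Monocyte and macrophage genes stood high, with 13 of 15 raised and a median of 1.78. *Cd68*, a lysosomal protein of phagocytes, measured 12.2, 12.7, 6.60 and 7.17 CPM in sham and 47.6, 33.1, 29.7 and 37.1 in day 7 AMI, a log2 FC of 1.93 (SE 0.23, adjusted p = 8.07e-06). *Ms4a7*, found in macrophages, rose from 2.09, 1.73, 1.55 and 1.63 to 34.5, 24.9, 22.8 and 32.7 CPM, a log2 FC of 4.04, and in day 1 AMI it stood at 1.24. *Ccr2*, the receptor that brings monocytes in from blood, was at 3.32 on day 7 and 3.46 on day 1. *Cx3cr1*, the fractalkine receptor, was at 2.43 on day 7 and 0.42 on day 1.

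Markers of the macrophages that live in the heart before injury showed no rise. None of 8 rose, *Mgl2* fell, and 7 were not called, with a median of −0.43. *Lyve1* measured 24.6, 23.5, 14.3 and 15.1 CPM in sham and 10.8, 12.3, 14.8 and 11.6 in day 7 AMI, with a log2 FC of −0.64 (SE 0.18, adjusted p = 0.00740) that was under a FC of 2, and its groups overlapped. *Mgl2*, a macrophage lectin, went from 10.4, 18.8, 11.3 and 10.4 to 5.33, 5.49, 5.46 and 5.17 CPM, a log2 FC of −1.25 (SE 0.21, adjusted p = 0.000167). It lost its call on library sizes alone, where the median of the list was −0.03 and that of all genes 0.43, and on the log2(TPM + 1) scale the list median was 0.18. At an unadjusted p below 0.05 edgeR found 0 of the 8 higher, and DESeq2 called 0.

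Genes by which macrophages take up dead cells and handle their lipid rose in 8 of 17 cases and fell in 1, with a median of 0.91. *Gpnmb*, a glycoprotein of lipid-laden macrophages, measured 2.30, 2.42, 1.07 and 1.39 CPM in sham and 53.2, 56.7, 37.9 and 25.9 in day 7 AMI, a log2 FC of 4.59 (SE 0.28, adjusted p = 2.93e-08). In day 1 AMI it stood at 1.05. *Trem2*, a lipid-sensing receptor, and *Lgals3*, galectin 3, had log2 FCs of 3.29 and 3.71. *Lpl*, lipoprotein lipase, which heart muscle makes in large amounts as well, fell from 8310.2, 6891, 5732 and 5645 to 2524, 2848, 3207 and 2483 CPM, a log2 FC of −1.26. *Arg1*, an arginase of alternatively activated macrophages, was among the 8 largest rises by FC, with 0, 0, 1 and 0 counts in sham and 131, 181, 10 and 221 in day 7 AMI, where heart 3 was far below the other 3. No fold is given for *Arg1* or *Cdkn2a*, which had 1 and 2 counts in all over the sham hearts.

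Neutrophil genes showed no common direction. Of 8 tested, 1 rose and 1 fell, with a median of −1.09. The defining neutrophil genes *Ly6g*, *Camp*, *Ltf*, *Elane* and *Mpo* did not pass the filter on low counts. *Csf3r*, the G-CSF receptor, which monocytes also carry, rose from 4.17, 4.85, 1.02 and 1.29 to 8.84, 5.72, 7.01 and 14 CPM, a log2 FC of 1.64 (SE 0.45, adjusted p = 0.00585). *Retnlg* had 2.92, 5.67, 0.146 and 0.191 CPM in sham and 0.0925, 0, 0.111 and 0.714 in day 7 AMI, and its call, a log2 FC of −3.25 (SE 1.11, adjusted p = 0.0208), was lost without sham heart 2 (−2.18) and without day 7 AMI heart 1, 2 or 3 (from −3.03 to −2.87). The list summed to 26.9, 14.5, 27.5 and 203 TPM in the day 7 AMI hearts, with heart 4 the highest, and without that heart 4 members fell and *Retnlg* stood at −4.92.

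T, NK and B cell genes rose in 12 of 19 cases and fell in 1, with a median of 1.83, at low levels. *Cd3e*, a chain of the T cell receptor complex, had 3, 1, 3 and 2 counts in the 4 sham hearts and 21, 15, 20 and 34 in the 4 day 7 AMI hearts, a log2 FC of 2.82 (SE 0.57, adjusted p = 0.000702). *Lck*, a kinase of T cells, had a log2 FC of 3.08, and *Gzmb*, granzyme B of killer cells, one of 2.98. Day 7 AMI heart 4 was highest for each of the 3. *Gzmb* had 2, 1, 3 and 1 counts in sham and 10, 8, 15 and 46 in day 7 AMI, and its value was 2.17 without heart 4. Against the floor of 3 counts per library *Gzmb* was at least 4.37-fold higher, and at least 2.5-fold without that heart. *Ctla4*, a checkpoint receptor of T cells, fell from 2.71, 2.79, 2.72 and 2.30 to 0.401, 0.811, 1.22 and 0.748 CPM, a log2 FC of −1.73 (SE 0.30, adjusted p = 0.000192), against the direction of the list. The sham hearts held 52, 68, 56 and 48 counts of *Ctla4* against 3, 1, 3 and 2 of *Cd3e*, and which cells *Ctla4* came from was not tested. On the log2(TPM + 1) scale, where a filter on TPM left 8 of the list, 4 rose.

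MHC class II genes, with which dendritic cells and macrophages show antigen to T cells, and genes of dendritic cells rose in 14 of 17 cases, with a median of 1.93. *Cd74*, the invariant chain, measured 75.3, 60.3, 107 and 120.3 CPM in sham and 251, 202, 172 and 477 in day 7 AMI, a log2 FC of 1.6 (SE 0.28, adjusted p = 0.000202). *Ciita*, the master activator of these genes, rose from 1.20, 1.44, 2.38 and 1.96 to 10.3, 4.87, 6.86 and 17.2 CPM. *Itgax*, CD11c, and *Cd209a*, a lectin of dendritic cells, had log2 FCs of 3.45 and 2.91. The whole list summed to 168, 156, 264 and 287 TPM in sham and 1004, 748, 677 and 1932 TPM in day 7 AMI, again with heart 4 on top. *B2m*, the light chain of MHC class I, was among the 8 genes that gained most in TPM, from 305 ± 57.1 to 1434 ± 469 (SD, n = 4).

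Interferon-stimulated genes rose in 20 of 22 cases, with a median of 1.63. In day 1 AMI 5 were above sham, and 11 rose between day 1 and day 7 AMI. *Cxcl10*, a chemokine for T cells, measured 0.522, 1.11, 0.437 and 0.574 CPM in sham and 8.78, 8.46, 3.84 and 18.1 in day 7 AMI, a log2 FC of 3.86 (SE 0.44, adjusted p = 5.37e-06). *Mx1*, an antiviral GTPase, and *Oas3*, an oligoadenylate synthetase, had log2 FCs of 2.84 and 2.56. The groups overlapped in *Oas3*, whose value was 3.38 without sham heart 2. *Isg15*, a ubiquitin-like protein and a standard marker of the response, was not called, with a log2 FC of 0.94 (SE 0.43, adjusted p = 0.0758). Its values were 4.49, 16.6, 3.69 and 3.01 CPM in sham and 19.2, 10.5, 8.96 and 15.1 in day 7 AMI, so that sham heart 2 lay inside the day 7 AMI range, and without that heart it passed (1.85). Day 7 AMI heart 4 was highest for *Cxcl10* and *Mx1*, as for the class II and T cell genes.

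The interferon-stimulated response element (ISRE), GAAA and GAAA with 2 bases between them on either strand, was in 10 of the 16 windows found for this list (62.5%) and in 3.94% of all windows. The 4 members with the highest day 7 AMI level that held it before the start are shown in the same way, with the element in capitals.
Bst2, chr8:71537567-71537616, minus strand: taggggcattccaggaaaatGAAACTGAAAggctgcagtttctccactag
Ifit3, chr19:34583387-34583436, plus strand: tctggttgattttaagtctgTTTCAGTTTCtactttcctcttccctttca
Isg15, chr4:156200855-156200904, minus strand: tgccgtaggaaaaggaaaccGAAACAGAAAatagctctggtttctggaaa
Gbp2, chr3:142620584-142620633, plus strand: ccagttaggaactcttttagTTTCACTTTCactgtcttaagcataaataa
*Bst2* tethers budding virus, *Ifit3* belongs to an RNA-binding antiviral family and *Gbp2* is a guanylate-binding GTPase. Their log2 FCs were 1.65, 1.61 and 1.28.

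Of the complement system, genes rose in 7 of 19 cases, with a median of 0.71. *C3ar1*, the receptor for the C3a fragment, measured 9.75, 6.28, 4.85 and 4.45 CPM in sham and 54.4, 38.1, 32.0 and 50.5 in day 7 AMI, a log2 FC of 2.79 (SE 0.24, adjusted p = 4.61e-07). *Cfi* and *Cfb*, a protease that inactivates C3b and a part of the alternative convertase, had log2 FCs of 3.50 and 2.61, but another gene on the same strand covers 79.5% of the exon bases of *Cfb*. *Cfi* stood at 5.07 without sham heart 2 and *Cfb* at 1.83 without day 7 AMI heart 4. *C3* itself was not called, with a log2 FC of −0.07 (SE 0.45, adjusted p = 0.898). It measured 488, 444, 116 and 112 CPM in sham, high in hearts 1 and 2, and 160.3, 207, 243 and 492 in day 7 AMI, and its sign changed when single hearts were left out.

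**Figure D4:**
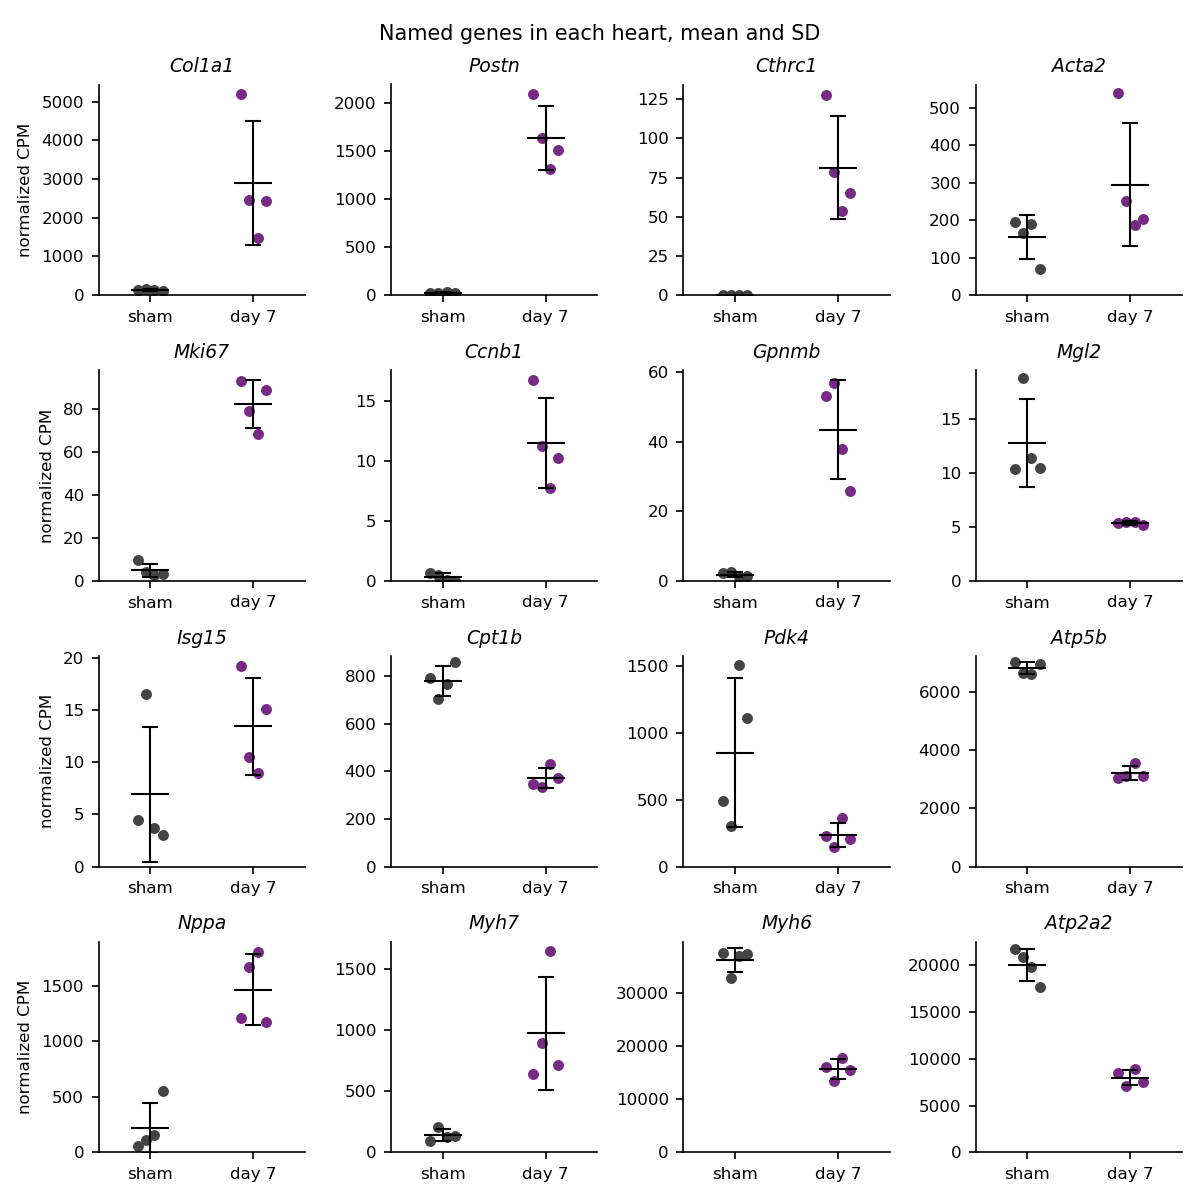
Normalized CPM of 16 genes in each heart (grey, sham; purple, day 7 AMI), with the mean and SD (n = 4) in black and every axis from 0, where error bars end. Postn and Mki67 are high in every day 7 AMI heart, Acta2, Isg15 and Pdk4 overlap between the groups, and Cpt1b, Atp5b, Myh6 and Atp2a2 are lower in every day 7 AMI heart.

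Of 179 metabolic genes tested, 100 fell, 10 rose and 69 were not called, with a median log2 FC of −1.06, where 5.88% of all genes fell. Fatty acid uptake and oxidation, the main fuel route of the adult heart, led with 23 of 26 lower and a median of −1.31. *Cpt1b* (chromosome 15, 89416405 to 89425863, minus strand), the muscle enzyme that admits fatty acids to mitochondria, measured 790.4, 702, 767 and 858 CPM in sham and 346, 336, 429.8 and 372 in day 7 AMI, a log2 FC of −1.07 (SE 0.10, adjusted p = 9.36e-07). Each day 7 AMI heart was below each sham heart, but a readthrough gene on the same strand shares 81.4% of its exon bases. *Etfb*, which passes electrons from fatty acid oxidation to the respiratory chain, went from 516, 649, 628 and 634 to 212, 161, 209 and 166 CPM, a log2 FC of −1.70. *Ucp3*, a mitochondrial carrier, had a log2 FC of −2.43, with 81.3, 64.5, 192 and 169 CPM in sham and 11.8, 11.7, 46.5 and 24.1 in day 7 AMI. *Pdk4*, the kinase that shuts off glucose oxidation, had 490.0, 302, 1508 and 1109.9 CPM in sham and 227, 150.1, 365 and 204 in day 7 AMI, so that the groups overlapped, with a log2 FC of −1.85 (SE 0.44, adjusted p = 0.00224). *Acot1*, an acyl-CoA thioesterase, was among the 8 largest falls of all by FC, at 61.2, 44.2, 47.3 and 31.5 CPM in sham and 4.96, 3.48, 6.12 and 4.49 in day 7 AMI (log2 FC −3.27).

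Downstream of that, 11 of 22 genes of pyruvate dehydrogenase and the TCA cycle fell and 11 were not called, with a median of −0.99. The 11 not called were close to the limit. All 22 had a negative log2 FC, from −1.37 to −0.76, and all 22 passed the FDR without the FC minimum, as 28.4% of all genes did in that direction and 30.9% in the other. *Sdha*, the flavoprotein of succinate dehydrogenase, measured 1829, 1875, 1867 and 1827 CPM in sham and 716, 639, 812 and 688 in day 7 AMI, a log2 FC of −1.37 (SE 0.10, adjusted p = 9.43e-08). *Idh2* and *Idh3b*, isocitrate dehydrogenases, both had log2 FCs of −1.30. *Cs*, citrate synthase, went from 1979.6, 1516, 1799 and 1909 to 869, 939.9, 986 and 953 CPM and was not called at −0.94.

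Nuclear genes of the respiratory chain fell in 42 of 56 cases and none rose, with a median of −1.09. Their sum was 80418, 106270.0, 106460.0 and 97297 TPM in sham and 65055, 56274, 64852 and 60641 TPM in day 7 AMI, without overlap. *Ndufs1*, the largest subunit of complex I, measured 967, 767, 852 and 915 CPM in sham and 383, 420.2, 458 and 407 in day 7 AMI, a log2 FC of −1.07 (SE 0.11, adjusted p = 1.56e-06). *Cox7a1*, the muscle form of a complex IV subunit, had the lowest value, with 492, 524, 605 and 526 CPM in sham and 172, 127, 181 and 133 in day 7 AMI (log2 FC −1.81). *Atp5k* and *Ndufs6*, small subunits of ATP synthase and complex I, were at −1.75 and −1.73, and both were lowest of their group in sham heart 1. In *Atp5b*, the catalytic subunit of ATP synthase and one of the 8 largest losses in TPM, the level went from 12067 ± 1446 to 8392 ± 504 TPM (SD, n = 4). Between day 1 and day 7 AMI 10 of the 56 fell (2.69% of all genes did), and none was called in day 1 AMI against sham, where 2.98% of all genes fell. At an unadjusted p below 0.05, however, 47 of the 56 were already lower in edgeR's test on day 1, each with a FC under 2 or an FDR above the limit.

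Breakdown of branched-chain amino acids and ketone bodies showed 14 of 18 genes lower and a median of −1.15. *Bckdhb* and *Bckdha*, the subunits of the enzyme that commits branched-chain amino acids to oxidation, both had log2 FCs of −1.58. The values of *Bckdhb* were 78.9, 71.9, 68.3 and 63.9 CPM in sham and 18.1, 27.5, 24.5 and 24.8 in day 7 AMI, and an antisense gene covers 61.7% of the exon bases of *Bckdha*. *Oxct1*, which starts the use of ketone bodies, was not called at −0.91. *Gnmt* and *Inmt*, methyltransferases, were among the 8 largest falls by FC, with log2 FCs of −3.47 and −3.16.

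Glycolysis was mixed. Of 24 genes of glycolysis and lactate transport, 4 fell, 2 rose and 18 were not called, with a median of −0.32, and the summed level was 13844, 16441, 15005 and 15173 TPM in sham and 14221, 14299, 14934 and 15590.0 TPM in day 7 AMI, with overlap. *Ldhb*, the heart form of lactate dehydrogenase, fell from 1834, 1854, 1784 and 1936 to 686, 704, 840.2 and 678 CPM, a log2 FC of −1.35 (SE 0.10, adjusted p = 1.51e-07). *Slc2a4*, the insulin-dependent glucose carrier GLUT4, and *Pfkm*, muscle phosphofructokinase, had log2 FCs of −1.27 and −1.15. *Hk3*, a hexokinase of myeloid cells, and *Slc16a3*, a lactate exporter, were the 2 that rose, at 2.09 and 2.07. *Pkm*, pyruvate kinase, was not called at −0.49, and its sign was positive on both log2 TPM scales. The median of the list was 0.08 on library sizes alone and 0.32 on the log2(TPM + 1) scale, so its direction depended on the scaling.

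Genes of serine, one-carbon and proline metabolism, which supplies building blocks of collagen and DNA, moved both ways. Of 13 tested, 7 rose and 2 fell, with a median of 1.37. The log2 FC was above 0 in 7 and below 0 in 6, and the mean sum was 161.4 TPM in sham and 161.5 in day 7 AMI. *Phgdh*, the first enzyme of serine synthesis, measured 0.939, 1.81, 1.99 and 1.34 CPM in sham and 8.47, 5.76, 4.35 and 4.83 in day 7 AMI, a log2 FC of 1.94 (SE 0.25, adjusted p = 1.40e-05). *Pycr1*, the last enzyme of proline synthesis, and *Mthfd2*, the mitochondrial one-carbon enzyme, had log2 FCs of 2.14 and 1.97. *Prodh* and *Aldh4a1*, which break proline down, were the 2 that fell, at −1.65 and −1.53. *Prodh* went from 28.5, 34.5, 27.1 and 35.6 to 9.95, 8.92, 11.6 and 9.63 CPM, with each day 7 AMI heart below each sham heart. In day 1 AMI 7 of the 13 were also above sham.

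Of 14 regulators of mitochondrial genes, 3 fell and none rose, with a median of −0.64. *Esrra*, the estrogen-related receptor alpha, measured 169, 278, 237 and 190.5 CPM in sham and 102, 74.3, 97.7 and 85.0 in day 7 AMI, a log2 FC of −1.29 (SE 0.15, adjusted p = 5.76e-06). *Rxrg*, a retinoid X receptor, and *Perm1*, a muscle regulator of PGC-1 and ERR targets, had log2 FCs of −1.14 and −1.08, and *Ppargc1a*, PGC-1 alpha, was not called at −0.86. *Perm1* lost its call without sham heart 2, at −1.0. In the creatine kinase system *Ckm*, the muscle enzyme, fell to 1262, 1139, 1401 and 1202 CPM from 2707, 2579, 2764 and 3231 (log2 FC −1.17), *Gatm*, the first enzyme of creatine synthesis, rose by 1.56, and 4 of 6 were not called.

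The FC limit decided many of these calls. On library sizes alone the lower counts were 10 of 26 for fatty acid oxidation, 0 of 22 for the TCA cycle, 10 of 56 for the respiratory chain and 5 of 18 for amino acid and ketone breakdown. With the same scaling and the FDR alone, an alternative added after the data were seen, they were 25, 22, 55 and 17. The direction of the medians held on each scale, from −1.31 with TMM to −0.76 on the log2(TPM + 1) scale for fatty acid oxidation and from −1.09 to −0.55 for the respiratory chain. Markers of heart muscle cells moved with this programme. Of 11 cardiomyocyte markers 7 fell and none rose, with a median of −1.09 and log2 FCs from −1.37 to −0.17. Their sum was 84819, 85619, 97720.0 and 96932 TPM in sham and 69860.0, 62353, 74176 and 69551 TPM in day 7 AMI. Their part in the metabolic result was not tested, nor was that of the mitochondrial share of counts given above. Within each heart, the ratio of the respiratory chain sum to the sarcomere sum, which was chosen after the data were seen, was 0.912, 1.22, 1.02 and 0.935 in sham and 0.836, 0.762, 0.773 and 0.769 in day 7 AMI, lower in each day 7 AMI heart. The same ratio for fatty acid oxidation was 0.192, 0.209, 0.207 and 0.198 in sham and 0.163, 0.135, 0.154 and 0.147 in day 7 AMI. For glycolysis and lactate it was 0.157, 0.189, 0.144 and 0.146 in sham and 0.183, 0.194, 0.178 and 0.198 in day 7 AMI, with overlap. The sarcomere list had a median log2 FC of −0.60, against −1.09 for the cardiomyocyte markers, and no ratio to those markers was taken.

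Of 133 muscle genes tested, 11 rose, 24 fell and 98 were not called, with a median of −0.46. Over all genes 15.3% rose and 5.88% fell, so muscle genes rose less often and fell more often than all genes. Sarcomere and Z-disc genes, the contractile machinery, fell in 7 of 26 cases, with a median of −0.60. *Myh6* (chromosome 14, 54941921 to 54966927, minus strand), the fast alpha myosin heavy chain of the adult mouse heart, measured 37374, 32762, 36967 and 37293 CPM in sham and 15977, 13390.0, 17779 and 15534 in day 7 AMI, a log2 FC of −1.20 (SE 0.14, adjusted p = 5.89e-06). The change of its level in TPM was smaller, from 11963 ± 839 to 9029 ± 1322 (SD, n = 4). *Myl2* and *Tnni3*, the ventricular light chain and cardiac troponin I, had log2 FCs of −1.37 and −1.35, and *Tcap*, which caps titin, one of −1.55. *Tnnt2*, cardiac troponin T, went from 6821, 6471, 6568 and 7545 to 3352, 2937, 3604 and 2943 CPM (log2 FC −1.09). *Mb*, myoglobin, went from 13818 ± 1281 to 8968 ± 1607 TPM (SD, n = 4) and was among the 8 largest losses in TPM. On library sizes alone 1 sarcomere gene was called lower and on the log2(TPM + 1) scale none.

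Genes of the fetal and stress programme, which overloaded muscle switches back on, rose in 9 of 14 cases, with a median of 1.31. *Nppa* (chromosome 4, 148000722 to 148002079, plus strand), atrial natriuretic peptide, gained more TPM than any other gene of the 8 named by that rule, from 399.7 ± 401 to 3879 ± 709 (SD, n = 4). It measured 55.6, 113, 155 and 555 CPM in sham, with heart 4 far above the others, and 1205, 1664, 1803 and 1176 in day 7 AMI, a log2 FC of 2.73 (SE 0.56, adjusted p = 0.000710), and an antisense gene covers 61.5% of its exon bases. Without sham heart 4 the value was 3.75. Atrial markers other than *Nppa* did not rise. Of 7 on the list, *Nppa* rose, *Bmp10* and *Kcnj3* fell, and *Bmp10*, which atrial muscle makes, measured 2.66, 9.28, 0.0970 and 66.3 CPM in sham and 0.894, 0.502, 0.0369 and 0.510 in day 7 AMI, with overlap. Its log2 FC of −5.28 was −3.03 without sham heart 4. Sham heart 4 held the most *Bmp10* and *Myl7*, whose sham values were 12.2, 32.0, 10.7 and 86.8 CPM. *Sprr1a*, a cornified envelope protein that stressed heart muscle makes, went from 0.209, 0.0821, 0 and 0 to 32.4, 49.9, 34.2 and 41.8 CPM with log2 FCs of 9.04 on day 7 (10.14 without sham heart 1) and 9.07 on day 1. *Ankrd1*, a stretch-responsive protein of the Z-disc, rose from 522, 373, 972 and 1159 to 2569, 2759.6, 3698 and 2195 CPM, a log2 FC of 1.89. *Clu*, clusterin, a secreted chaperone, gained from 490.4 ± 44.4 to 2465 ± 334 TPM.

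*Myh7*, the slow beta myosin heavy chain of the fetal mouse heart, showed the shift between myosins. Its values were 92.8, 211, 125 and 136 CPM in sham and 640.5, 897, 1645 and 713 in day 7 AMI, a log2 FC of 2.78 (SE 0.37, adjusted p = 1.72e-05). As a share of the TPM of *Myh6* and *Myh7* together, it took 0.179%, 0.529%, 0.323% and 0.262% in the 4 sham hearts and 2.80%, 4.84%, 6.28% and 3.04% in the 4 day 7 AMI hearts. The mean went from 0.323% ± 0.149 to 4.24% ± 1.64 (SD, n = 4), a difference of 3.92 percentage points, with the groups apart (p = 0.0286 by exact permutation, two-sided, which is the lowest p possible with 4 against 4). Even in day 7 AMI heart 3, the highest, *Myh6* remained the main form. The TPM of neighbouring myosin genes rests on the division of reads between near copies, and 13.3% of the exon bases of *Myh7* lie under other genes.

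Calcium handling genes, which set contraction and relaxation, fell in 4 of 19 cases and rose in 1, with a median of −0.48. *Atp2a2*, the SERCA2 pump that refills the sarcoplasmic reticulum, measured 21745, 20845, 19785 and 17681 CPM in sham and 8491, 7070.2, 8886 and 7519.5 in day 7 AMI, a log2 FC of −1.32 (SE 0.14, adjusted p = 2.79e-06). *Hrc*, which binds calcium inside the reticulum, and *Camk2a*, a calmodulin kinase, had log2 FCs of −1.73 and −1.10. *Fkbp1b*, a stabiliser of the ryanodine receptor, was the 1 that rose, at 1.18, and its call was lost without sham heart 3 (0.98) or day 7 AMI heart 1 (0.99).

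Ion channel genes fell in 9 of 26 cases and rose in 1, with a median of −0.64. *Kcnv2*, a silent subunit of potassium channels, had the largest fall of the muscle programme, from 30.1, 28.3, 14.6 and 17.2 to 2.22, 0.889, 1.92 and 2.04 CPM, a log2 FC of −3.66 (SE 0.34, adjusted p = 7.67e-07). *Scn4b*, a sodium channel subunit, and *Kcnip2*, an auxiliary subunit of the channels of the transient outward current, were at −1.87 and −1.65. Their values on day 1 were −2.95, −1.66 and −2.10 in the same order. *Cngb3*, a cyclic nucleotide-gated channel subunit outside the list, was among the 8 largest falls by FC, at 9.13, 4.68, 5.58 and 9.08 CPM in sham and 0.493, 0.386, 0.959 and 0.340 in day 7 AMI.

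The junctions, receptors and transcription factors of heart muscle were largely not called. The share that fell was 5.88% in the intercalated disc list and 6.67% among transcription factors, near the 5.88% of all genes. In the intercalated disc 1 of 17 fell, *Dsg2*, a desmosomal cadherin, with a log2 FC of −1.07 that was lost without day 7 AMI heart 1 (−0.98). *Gja1*, connexin 43, measured 526, 393, 537 and 499 CPM in sham and 458, 512, 511 and 439 in day 7 AMI, with a log2 FC of −0.03 (SE 0.11, adjusted p = 0.852) and overlapping groups. Of 16 adrenergic and cAMP genes, *Adra1b* and *Adra1a*, the alpha-1 receptors, fell, at −1.31 and −1.21, while *Adrb1*, the main beta receptor, was not called at −0.27. Of 15 cardiac transcription factors *Tbx5* fell, from 44.2, 37.9, 29.8 and 33.2 to 14.5, 17.3, 15.9 and 13.5 CPM (log2 FC −1.25), and *Gata4* was not called at −0.16. The signs of *Gja1*, *Adrb1* and *Gata4* turned positive on library sizes alone. So did the medians of the intercalated disc (0.10) and transcription factor lists (0.05), and on the log2(TPM + 1) scale those of the calcium handling (0.10) and adrenergic lists (0.10) as well, where the median of all genes was 0.48.

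Other cells of the heart wall were followed with marker lists. Of 13 endothelial genes none was called by edgeR or DESeq2, although 8 were higher and 3 lower at an unadjusted p below 0.05 in edgeR's test. The median was 0.33, and *Pecam1* measured 174, 188, 163 and 174 CPM in sham and 261, 252, 262 and 266 in day 7 AMI, a log2 FC of 0.58 that passed the FDR but was under a FC of 2. On library sizes alone 3 of them and on the log2(TPM + 1) scale 6 were called higher. Among 10 mural genes, those of pericytes and vascular smooth muscle, 2 rose (20%) and 1 fell (10%). Those shares were near the 15.3% and 5.88% of all genes. *Pdgfrb*, the PDGF receptor, and *Cspg4* had log2 FCs of 1.04 and 1.00, which both lost their call without sham heart 1 or day 7 AMI heart 1. *Abcc9*, a potassium channel subunit, had −1.09. Its sham mean of 482 CPM was above those of *Pdgfrb* (80.9) and *Cspg4* (33.4), and which cells it came from was not tested. Of 10 epicardial genes 5 rose, with *Upk1b* at 2.29, *Aldh1a2* at 1.5, *Tbx18* at 1.23 and *Wt1* at 1.12. Without sham heart 4, 3 epicardial genes were called, and *Wt1* was one of those that lost the call (0.98). Red cell genes fell in 4 of 7 cases, with *Hba-a1* at 461, 1736, 202 and 227 CPM in sham and 249.7, 87.5, 196 and 305 in day 7 AMI, with overlap, and without sham heart 2 none was called. The values of *Hba-a1*, *Slc4a1* and *Hbb-bt* went from −1.65, −2.59 and −1.90 to −0.50, −0.60 and −0.26 without that heart.

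Tissue that could have come along with the heart was also checked. Of 4 fat genes 0 were called by edgeR or DESeq2, 1 was lower at an unadjusted p below 0.05 in edgeR's test, and the sums were 26.5, 36.0, 35.8 and 36.0 TPM in sham and 31.6, 32.0, 31.6 and 33.5 in day 7 AMI. Of the skeletal muscle list *Tnnt3*, fast troponin T, rose by 2.79 from 0.104, 0.205, 0.243 and 0.287 CPM, *Mylpf* was at 0.02, and *Myh4*, the defining fast myosin, had 0, 2, 0 and 0 counts in sham and 0, 6, 0 and 3 in day 7 AMI. Of the lung list only *Ager* was tested and rose by 1.71 (2.36 without sham heart 3), and *Sftpc*, the surfactant gene that defines lung epithelium, had 0, 0, 0 and 0 counts in sham and 34, 0, 132 and 0 in day 7 AMI. No thymus gene passed the filter. Of 5 Schwann cell genes *Prx* rose by 1.15 and 4 were not called. The defining markers of skeletal muscle, lung and thymus were thus at or near 0 except for *Sftpc* in day 7 AMI hearts 1 and 3, whose part in other results was not tested. The heart label itself held, since *Tnnt2* and *Myh6* were abundant in every heart.

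**Figure D5:**
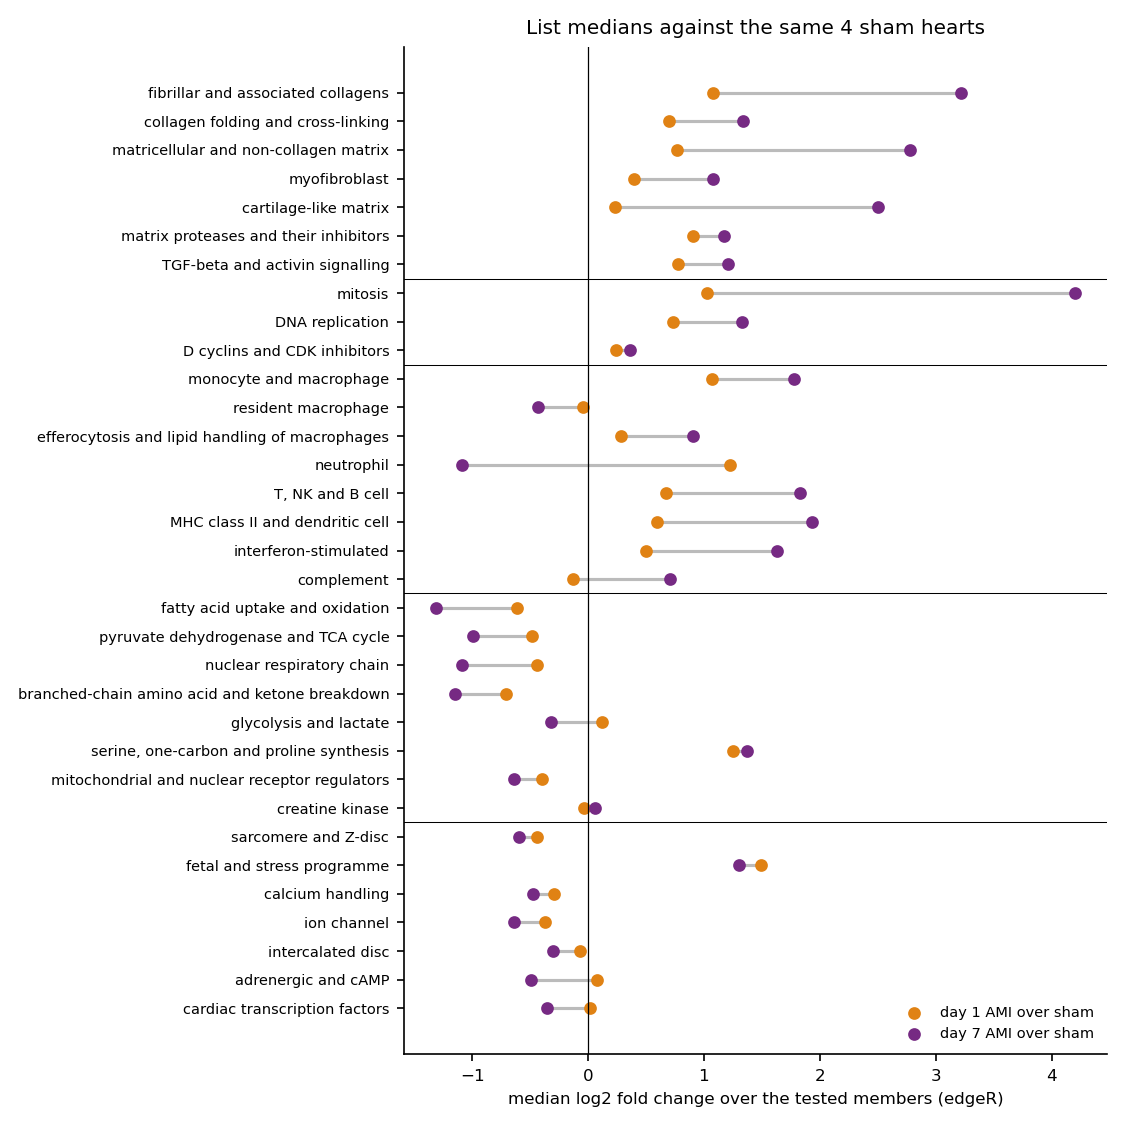
Median edgeR log2 FC of each of 33 lists in day 1 AMI (orange) and day 7 AMI (purple) over the same 4 sham hearts, so the 2 values of a list are not independent. The mitosis median was 1.03 on day 1 and 4.20 on day 7, the collagen median 1.08 and 3.22, and the serine, one-carbon and proline median 1.25 and 1.37.

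The remaining genes named by size of change belong to none of the lists. *Clec18a*, a C-type lectin, fell from 0.991, 1.64, 1.07 and 1.15 to 0.0308, 0.0386, 0.111 and 0.170 CPM, and *Gm30302*, a gene with no established role, had a log2 FC of −3.17. *Gm20431*, with 0, 0, 0 and 0 counts in sham and 48, 375, 91 and 41 in day 7 AMI, lies wholly on exons of *Tmem189* and *Ube2v1*, so its reads cannot be told apart from theirs. *Tmsb4x*, thymosin beta 4, which binds actin, gained from 507 ± 75.3 to 2164 ± 338 TPM (SD, n = 4). *Eef1a1*, an elongation factor of protein synthesis, gained from 645 ± 25.4 to 2252 ± 299 TPM. *Cox8b*, a heart and muscle subunit of complex IV, went the other way, from 5922 ± 513 to 3236 ± 595 TPM.

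Genes that share exon bases with a neighbour carry a further uncertainty, since the strand used in counting is not given in the sources used here. Besides those named above, the shared part was 58.2% for *Etfb*, 32.5% for *Aldh4a1*, 31.9% for *Mb*, 31.1% for *Kcnj3* and 20.6% for *Tbx18*. Promoter windows of the metabolic and muscle lists were searched with the same 7 motifs. The NRF1 site GCGCA and GCGC with 1 base between them was in 9 of 44 windows of respiratory chain genes (20.5%) and in 7.17% of all. Over all windows it overlapped another motif in 10 cases, counted motif by motif. The CArG box, which serum response factor binds, was in 5 of 21 windows of sarcomere genes (23.8%), 2 of 12 of myofibroblast genes (16.7%) and 1.76% of all. The estrogen-related receptor site TNAAGGTCA was in 0 of 44 windows of respiratory chain genes, 0 of 23 of fatty acid oxidation genes and 1.19% of all, which says only that these letters were not in those windows.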

How the data were processed

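RNA-seq of hearts was read as gene counts, which the authors deposited without normalization, and as TPM, which the authors deposited beside them. Per the labels and methods, total RNA was made into 150-bp paired-end libraries with random hexamers, and CASAVA 1.8, Cutadapt, STAR 2.4.0j and RSEM are named with mm10 (GRCm38). The counting tool and its strand setting are not given in the sources used here.

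Of 53801 genes, 15306 passed edgeR's filterByExpr. They were fitted with edgeR 4.0.16 (R 4.3.3, TMM, quasi-likelihood test) on 12 hearts in 3 groups, with Benjamini-Hochberg adjustment over all 15306 genes. DEGs had an FDR below 0.05 and an FC of 2 or greater. DESeq2 1.42.0, limma 3.58.1 on log2(TPM + 1) and log2(TPM + 0.1) (filter: 1 TPM or more in 4 or more hearts), other scalings, no filter, 8 hearts only, a replicate block and each heart left out in turn were alternatives. On simulated counts for 15306 genes, edgeR recovered 200 of 200 changed genes with 4 false calls. The changed genes had ample counts and rose or fell in equal numbers by more than the FC limit. All genes shared a fixed spread. The run could thus not test genes of few counts, calls near the FC limit or the scaling.

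Members and gene lists were chosen with earlier results of these data known, so a count over a list is a description. Named genes were the anchor of each list, up to 3 called members with the largest FC in its main direction and up to 2 in the other, the 8 largest rises and falls by FC and by TPM among called protein-coding genes with at least 1 CPM in the higher group and no overlap between groups, *Myh6*, *Myh7* and markers of tissue outside the heart wall. A few genes that this rule names are not reported here. Exon overlaps came from GENCODE M21 and promoters from RefSeq (GRCm38.p6). Total counts were 23204551 to 28738082 per heart compared. Repeated libraries were looked for with chi-square tests and none was found.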

Additional observations from a re-analysis of the deposited data

Results flagged for a closer look

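Among 420 groups of 4 hearts tested with Dixon's ratio, 20 (4.76%) had a heart far from the other 3, where chance gives about 1 in 20. In sham heart 1, *Etfb* was lowest at 516 CPM (others 628 to 649), *Atp5k* lowest at 78.3 (169 to 185), *Ppargc1a* highest at 132 (99.9 to 101) and the fat list lowest at 26.5 TPM (35.8 to 36.0). In sham heart 2, *Mgl2* was highest at 18.8 CPM (10.4 to 11.3), *Mthfd2* highest at 3.98 (1.67 to 1.79), *Myh6* lowest at 32762 (36967 to 37374), *Camk2a* lowest at 62.1 (71.4 to 73.3) and the interferon-stimulated list highest at 233 TPM (137 to 147). In sham heart 3, *Adam12* was highest at 1.41 CPM (0.522 to 0.622), while *Cdkn2a* at 0.0970 and *Arg1* at 0.0485 were above 0 in that heart alone. In sham heart 4, *Acta2* was lowest at 70.1 CPM (166 to 195) and *Ctla4* lowest at 2.30 (2.71 to 2.79).

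In day 7 AMI heart 1, *Meox1* was highest at 72.8 CPM (61.6 to 62.9). In heart 2, *Kcnv2* was lowest at 0.889 CPM (1.92 to 2.22), *Tnnt3* highest at 2.36 (1.12 to 1.25) and the resident macrophage list lowest at 98.9 TPM (117 to 120). In heart 3, *Aldh1a2* was lowest at 12.4 CPM (17.9 to 18.9) and *Atp5b* highest at 3565 (3057 to 3118).

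*Mmp3* differed between the 2 days. Its log2 FC over sham was −1.10 on day 7 and 1.43 on day 1, and day 7 minus day 1 was −2.53 in edgeR's quasi-likelihood test (adjusted p = 0.000237).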

How the results depend on the processing

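Scaling and the FC limit moved the counts, while both counts stayed within 1.5 times of 2346 and 900 with DESeq2 on 12 or 8 hearts, RLE factors, no filter and edgeR on 8 hearts. On library sizes alone 3633 genes were higher and 318 lower. On the log2(TPM + 1) scale 2666 were higher and 113 lower, and on the log2(TPM + 0.1) scale 3575 were higher and 179 lower. With no FC minimum there were 4728 higher and 4353 lower, and on library sizes alone with no minimum, an alternative added after the data were seen, 8237 and 1659. Leaving out each heart gave 2261 to 2487 higher and 869 to 1047 lower. The beta myosin share of counts differed by 5.35 percentage points in place of 3.92, and leaving out each heart gave 3.24 to 4.40. Deposited TPM and counts are scaled to what was sequenced, so these data do not fix the total RNA of a heart. Genes of few sham counts have FCs that depend on the prior count.

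Same-numbered hearts did not deviate together. The 4 pairs of a sham and a day 7 AMI heart had correlations of −0.0931, −0.244, 0.127 and −0.161, and only number 3 correlated best with its own number. With the replicate block 2341 genes were higher and 899 lower.

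Signs that changed, among the genes reported, were all of genes not called. On library sizes alone *C3* was at 0.35, *Gja1* at 0.38, *Adrb1* at 0.13, *Gata4* at 0.24 and *Adipoq* at 0.086. On the log2(TPM + 1) and log2(TPM + 0.1) scales *C3* was at 0.72 and 0.74, *Pkm* at 0.10 and 0.10, *Gja1* at 0.54 and 0.54, *Adrb1* at 0.26 and 0.27, *Gata4* at 0.44 and 0.45, *Myl7* at 0.16 and 0.17 and *Adipoq* at 0.034 and 0.36. With the replicate block *C3* was at 0.0037. Leaving out each heart gave −0.51 to 0.29 for *C3*, −0.12 to 0.019 for *Gja1*, −1.12 to 0.17 for *Myl7* and −0.84 to 0.38 for *Adipoq*. The cause was not tested.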
